A study of Mus musculus with 6 samples.

Results

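The genes examined here belong to 2 families named for proton-coupled transport of small peptides and amino acids: Slc15a2, Slc15a3 and Slc15a4 of the SLC15 family and Slc36a1, Slc36a2 and Slc36a4 of the SLC36 family. They are 6 of the 26699 genes in the deposited count files, and each symbol matched a single row. Slc15a2 was chosen by its measured difference between the genotypes compared here, and the other 5, from the same 2 families, are called its relatives. The genotype differences of the 6 genes are therefore descriptions: no p-value is given for them, and whether a gene passed the threshold used for all genes is stated without being read as support.

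The cells were primary macrophages grown from the marrow of mice aged 8 weeks and set on the way to becoming osteoclasts, the bone-resorbing cells formed when macrophages fuse. The conditional knockout (cKO) cells were LysmCre-Slc11a2flox/flox, which carry Cre recombinase expressed from the lysozyme M promoter of the myeloid lineage together with floxed Slc11a2 alleles. The control cells were Slc11a2flox/flox, with the same floxed alleles but lacking Cre, and what Cre itself does cannot be told apart from the loss of Slc11a2. All cells of both genotypes were expanded with 10 ng/mL M-CSF and then received 30 ng/mL M-CSF and 50 ng/mL RANKL, the signal for osteoclast differentiation, over 48 hours. Slc11a2 encodes DMT1, an importer of ferrous iron that is itself driven by a proton gradient. There were 3 libraries of each genotype. The sources used here do not say whether libraries of a genotype come from separate mice, so the spread between libraries, on which all p-values rest, may be technical.

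SLC15 transporters carry dipeptides, tripeptides and, in some members, histidine across a membrane together with protons. PEPT2, the product of Slc15a2, works at the plasma membrane, whereas PHT2 and PHT1, the products of Slc15a3 and Slc15a4, sit on endosomes and lysosomes and are known in immune cells for moving bacterial muropeptides and for their part in Toll-like and NOD receptor signalling. SLC36 transporters carry small neutral amino acids such as glycine, alanine and proline. PAT1, the product of Slc36a1, works on lysosomes and at the plasma membrane, and PAT2, the product of Slc36a2, is a high-affinity form. PAT4, the product of Slc36a4, has been described for the human protein as a transporter of proline and tryptophan that needs no proton gradient. The annotations in the deposited files gave the term proton transmembrane transport to 3 of the 6 genes, Slc15a2, Slc36a1 and Slc36a2. They gave the term symporter activity to 4, Slc15a2, Slc15a3, Slc15a4 and Slc36a1.

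Library totals ranged from 49720701 to 55279336 reads in cKO cells and from 52989755 to 57797282 reads in control cells. The targeted gene Slc11a2 stood at 78.3, 82.8 and 87.4 CPM (read counts scaled to a common library size with TMM factors) in cKO libraries, against 119, 110 and 118 CPM in control libraries, and Lyz2 averaged 7783 ± 96.8 CPM in cKO and 17105 ± 1577 CPM in control cells (SD, n = 3 each). Slc11a2 was lower by 28.3% (edgeR adjusted p = 0.00219) and Lyz2, the locus that carries Cre, was also lower (log2 fold change -1.14 ± 0.08 SE, adjusted p = 9.39e-06). Of 16843 genes tested with edgeR's quasi-likelihood test, 229 (1.36%) were higher and 178 (1.06%) were lower in cKO cells at a Benjamini-Hochberg adjusted p below 0.05, together 2.42%, and 17.2% had an unadjusted p under 0.05. The 3 cKO libraries lay entirely above the 3 control libraries in 11.1% of the tested genes and entirely below them in 11.4%.

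All 6 transporter genes passed the filter on low counts. Slc15a2 and Slc36a2 were called higher in cKO cells and none of the 6 was called lower, where 1.36% and 1.06% of all tested genes were called. The cKO libraries lay above all control libraries for Slc15a2, Slc15a3 and Slc36a2, below all of them for Slc15a4, and overlapped them for Slc36a1 and Slc36a4. Since the genes were selected on this contrast, nothing further is read from these counts.

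**Figure D1:**
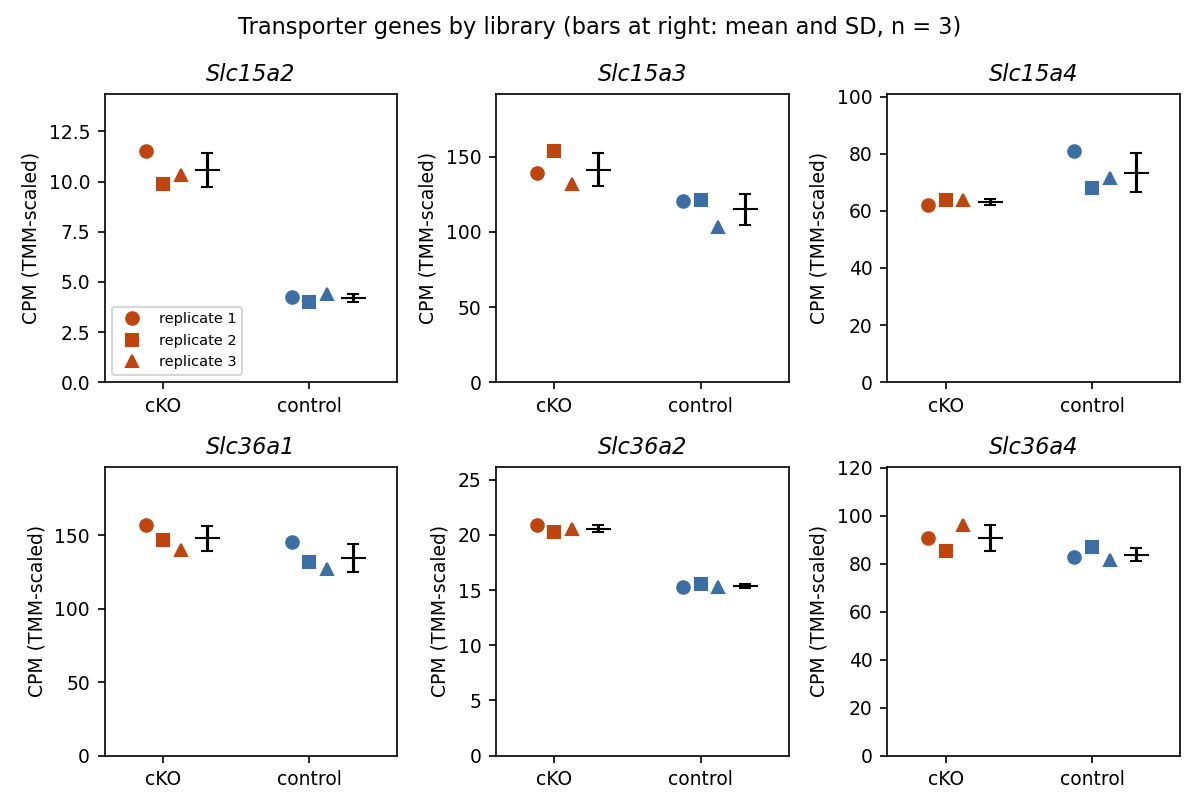
TMM-scaled CPM of the 6 transporter genes in each library, cKO left and control right in each panel, with the mean and SD of 3 libraries beside the points. Slc15a2 lies between 9.86 and 11.5 CPM in cKO libraries and between 3.99 and 4.38 CPM in control libraries, and Slc36a1 and Slc36a4 overlap between genotypes.

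Slc15a2 (ENSMUSG00000022899, chr16:36750177-36784962, minus strand, mm10), the gene of the plasma membrane peptide transporter PEPT2, was the least abundant of the 6 in either genotype by each measure used here. It had 580, 551 and 550 reads in cKO replicates 1 to 3, against 221, 229 and 251 reads in control replicates 1 to 3. After scaling these were 11.5, 9.86 and 10.3 CPM in cKO libraries and 4.25, 3.99 and 4.38 CPM in control libraries. The lowest cKO library was thus above the highest control library, and the mean was 10.6 ± 0.85 CPM in cKO cells and 4.21 ± 0.19 CPM in control cells (SD, n = 3 each). This is a 2.51-fold higher level in cKO cells, or 1.33 ± 0.14 as a log2 fold change with its standard error (SE). The control libraries varied by 4.63% of their mean, where counting error alone would give 6.54%, and the cKO libraries by 8.06%, against 4.22% for counting error.

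Slc15a2 was a minor transcript of the set. Its mean FPKM, the authors' length-scaled level, was 1.24 ± 0.09 in cKO cells and 0.48 ± 0.02 in control cells (SD, n = 3 each). That placed it above 35.6% of all tested genes in cKO cells and above 24.3% in control cells. Of the summed FPKM of the 6 genes, Slc15a2 held 1.80%, 1.53% and 1.67% in cKO libraries, against 0.70%, 0.69% and 0.79% in control libraries. A processed pseudogene on the opposite strand, Gm8425, takes up 769 bp inside the Slc15a2 locus and had 9 to 14 reads in cKO and 6 to 14 reads in control libraries, against at least 221 reads of Slc15a2.

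The promoter windows of Slc15a2 and Slc36a1 are shown as those of the scarcest of the 6 transcripts and of the most abundant by FPKM. Each window runs from 250 bases before to 50 bases after the RefSeq gene start on GRCm38.p6, 5′ to 3′ on the gene's own strand, with capitals marking matches to any motif searched. The Slc15a2 window is chr16:36784913-36785212 on the minus strand and the Slc36a1 window is chr11:55204090-55204389 on the plus strand.

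Slc15a2: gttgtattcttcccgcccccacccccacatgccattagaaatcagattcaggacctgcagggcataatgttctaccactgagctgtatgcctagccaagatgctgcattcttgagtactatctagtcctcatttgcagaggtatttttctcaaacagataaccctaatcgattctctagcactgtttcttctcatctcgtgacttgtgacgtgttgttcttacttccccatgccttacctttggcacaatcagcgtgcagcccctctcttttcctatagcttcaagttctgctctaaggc

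Slc36a1: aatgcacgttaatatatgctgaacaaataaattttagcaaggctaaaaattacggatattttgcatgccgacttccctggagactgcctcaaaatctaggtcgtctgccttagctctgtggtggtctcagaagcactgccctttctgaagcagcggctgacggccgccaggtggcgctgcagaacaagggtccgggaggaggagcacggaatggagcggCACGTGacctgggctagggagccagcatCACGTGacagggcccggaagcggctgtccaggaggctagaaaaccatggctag

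The Slc15a2 window had 46.3% G and C bases and 5 CpG dinucleotides, and the Slc36a1 window 54.7% and 15. The windows of Slc15a4 and Slc36a4 were richer, with 64.0% and 23 CpG in Slc15a4 and 69.0% and 32 CpG in Slc36a4. The Slc15a4 window, chr5:127617343-127617642 on the minus strand, lies inside the span of the counted gene. That span begins further upstream, at 127632897, so the window is not at its start. The medians over 27025 promoters were 52.7% and 7 CpG. The sequence table held 4 of the 6 genes, and those of Slc15a3 and Slc36a2 were not analysed here. The motifs searched on both strands were CACGTG (the E-box at the core of the lysosomal CLEAR element), GAAANNGAA (interferon response), TGANTCA (AP-1), GAGGAAGT (PU.1), TTGCGCAA (C/EBP) and TGACGTCA (CRE). CACGTG occurred at 2 places in the Slc36a1 window, 31 and 3 bases before the start, and in 7.24% of all promoters. The other motifs, which occur in 8.57%, 7.93%, 3.28%, 0.19% and 1.88% of promoters in the order given, were found in none of the 4 windows, and a match or its absence is a description of these letters only.

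The lysosomal SLC15 genes were not called, and their fold changes were of opposite sign. Slc15a3 (ENSMUSG00000024737, chr19:10839727-10859362, plus strand), encoding PHT2, stood at 139, 154 and 132 CPM in cKO libraries and at 121, 121 and 103 CPM in control libraries. All 3 cKO libraries were above all 3 control libraries, with a log2 fold change of 0.30 ± 0.08 (SE), or 1.23-fold. The last 1541 bp of its span overlap the annotated span of Tmem132a on the opposite strand, which averaged 49.9 ± 4.75 CPM in cKO and 44.5 ± 0.09 CPM in control cells (SD, n = 3 each). Whether reads were counted by strand is not stated in the sources, so reads in that overlap cannot be assigned with certainty.

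Slc15a4 (ENSMUSG00000029416, chr5:127595664-127632897, minus strand) encodes PHT1, the histidine and peptide carrier on which endosomal Toll-like receptor signalling depends. It was at 62.0, 63.9 and 63.7 CPM in cKO libraries, against 80.9, 67.9 and 71.5 CPM in control libraries. Every cKO library was below every control library, although control replicate 2 was only a few CPM higher. The log2 fold change was -0.22 ± 0.07 (SE), a change of -13.9%. The SD was 1.66% of the mean among cKO libraries and 9.14% among control libraries. Without control replicate 1, the highest library, the log2 fold change was -0.14.

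The lysosomal peptide carriers can be set against each other within a library. The ratio of Slc15a3 to Slc15a4 FPKM was 2.17, 2.33 and 2.00 in cKO libraries and 1.45, 1.73 and 1.40 in control libraries. The groups did not overlap, which follows from every cKO library being higher in Slc15a3 and lower in Slc15a4 than every control library. The mean ratio was 2.17 ± 0.16 in cKO cells and 1.52 ± 0.18 in control cells (SD, n = 3 each). The ratio of Slc15a3 to Slc15a2 FPKM was 16.3 to 21.1 in cKO libraries, against 32.7 to 41.3 in control libraries.

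Among the SLC36 genes, Slc36a2 had the largest difference. Slc36a2 (ENSMUSG00000020264, chr11:55158470-55185077, minus strand), which encodes the high-affinity amino acid carrier PAT2, stood at 20.9, 20.3 and 20.5 CPM in cKO libraries and at 15.3, 15.6 and 15.2 CPM in control libraries. The libraries within a genotype were nearly equal, with SDs of 1.58% of the mean in cKO and 1.20% in control cells, below the counting errors of 3.02% and 3.42%. The log2 fold change was 0.42 ± 0.09 (SE), or 1.34-fold. Leaving out 1 library at a time, Slc36a2 was called only without cKO replicate 3 and lost in the other 5 fits. The log2 fold change of Slc36a2 in those fits was 0.41 to 0.43.

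Slc36a1 and Slc36a4 overlapped between the genotypes. Slc36a1 (ENSMUSG00000020261, chr11:55204350-55236330, plus strand), encoding the lysosomal carrier PAT1, had 157, 147 and 140 CPM in cKO libraries and 146, 132 and 127 CPM in control libraries, a log2 fold change of 0.14 ± 0.07 (SE). Slc36a4 (ENSMUSG00000043885, chr9:15709738-15743361, plus strand), encoding PAT4, had 90.5, 85.2 and 96.2 CPM in cKO libraries and 82.9, 87.0 and 81.4 CPM in control libraries, a log2 fold change of 0.11 ± 0.06 (SE). In both genes the highest control library lay within the range of the cKO libraries.

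Slc36a1 and Slc36a2 are neighbours on chromosome 11 that are transcribed away from each other, with 19273 bp between them. Their ratio in FPKM, Slc36a1 over Slc36a2, was 4.34, 4.19 and 3.96 in cKO libraries and 5.51, 4.88 and 4.82 in control libraries, without overlap. The third gene of this cluster, Slc36a3, had 5 to 16 reads in cKO libraries and 0 to 10 reads in control libraries and did not pass the filter on low counts.

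**Figure D2:**
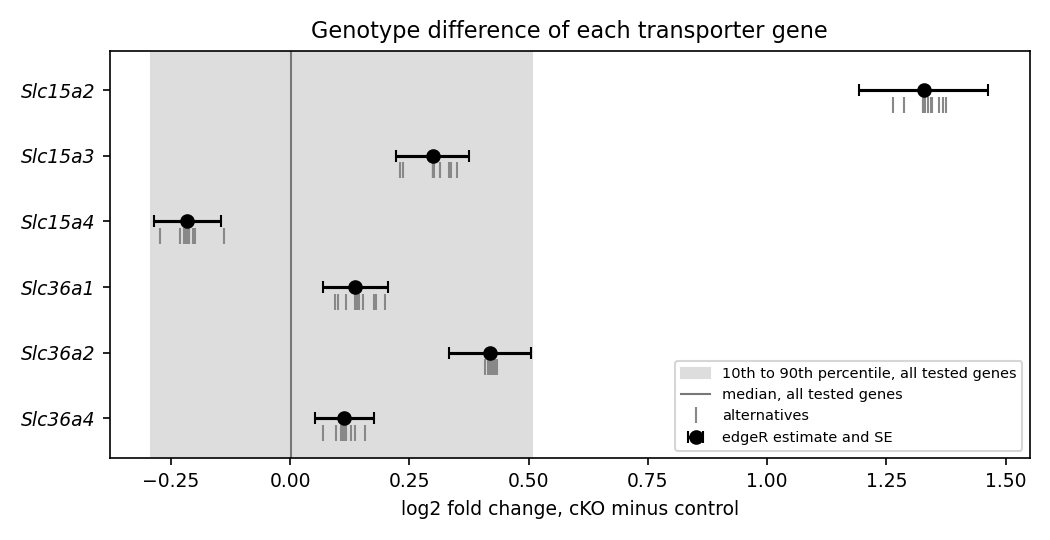
Log2 fold change, cKO minus control, of each transporter gene (points, edgeR estimate with SE; ticks, the alternative fits and the fits without a library), over a grey band from the 10th to the 90th percentile of all 16843 tested genes. Slc15a2 at 1.33 lies outside the band, which runs from -0.29 to 0.51, and the other 5 lie within it between -0.22 and 0.42.

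Because Slc15a2 was chosen by its difference in this contrast, its gap to its relatives is given only as a description. Set against its relatives within each library, Slc15a2 was higher in cKO cells. Its log2 CPM minus the mean log2 CPM of the other 5 genes was -2.73, -2.94 and -2.86 in cKO libraries, against -4.06, -4.09 and -3.89 in control libraries. The difference between the genotype means was 1.18 on the log2 scale, with an SD between libraries of 0.11 in each genotype. The relatives' own mean log2 CPM was 6.24 ± 0.02 in cKO and 6.09 ± 0.06 in control cells (SD, n = 3 each), a difference of 0.15. With the median of the relatives in place of their mean the difference was 1.21.

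On the scale of FPKM, the order of the levels was the same at both ends of the list in either genotype. In cKO cells Slc36a1 (22.9 ± 1.18 FPKM) was followed by Slc15a3 (22.4 ± 2.01), Slc36a4 (12.1 ± 0.66), Slc15a4 (10.3 ± 0.29), Slc36a2 (5.50 ± 0.03) and Slc15a2 (1.24 ± 0.09; SD, n = 3). In control cells Slc36a1 (20.7 ± 1.41 FPKM) was followed by Slc15a3 (18.1 ± 1.52), Slc15a4 (11.9 ± 1.06), Slc36a4 (11.1 ± 0.35), Slc36a2 (4.08 ± 0.05) and Slc15a2 (0.48 ± 0.02; SD, n = 3). Neighbours whose library ranges overlapped were Slc36a1 and Slc15a3 in cKO cells and Slc15a4 and Slc36a4 in control cells. The ratio of Slc36a4 to Slc15a4 was 1.19, 1.08 and 1.23 in cKO libraries and 0.83, 1.04 and 0.92 in control libraries.

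The order of the 4 more abundant genes depended on the transcript length assumed. With the summed gene counts as the read total, the FPKM values imply lengths 1.15 to 1.17 times the union of all annotated exons. A larger read total in the authors' scaling would imply shorter lengths. The union is 5491 bp for Slc15a3, although its longest protein-coding transcript in GENCODE M21 has 2345 bp, and 7361 bp against 3994 bp for Slc15a2. Per kb of the longest protein-coding transcript, Slc15a3 was the most abundant, at 60.4 ± 4.78 CPM per kb in cKO and 49.1 ± 4.31 in control cells (SD, n = 3 each). On that scale Slc15a4 was at 23.1 ± 0.38 CPM per kb in cKO and 26.9 ± 2.46 in control cells, close to Slc36a1 at 28.1 ± 1.62 in cKO and 25.6 ± 1.84 in control cells. Slc36a2 and Slc15a2 remained the 2 lowest, Slc15a2 at 2.64 ± 0.21 CPM per kb in cKO and 1.05 ± 0.05 in control cells. This scale was chosen after the data were seen.

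**Figure D3:**
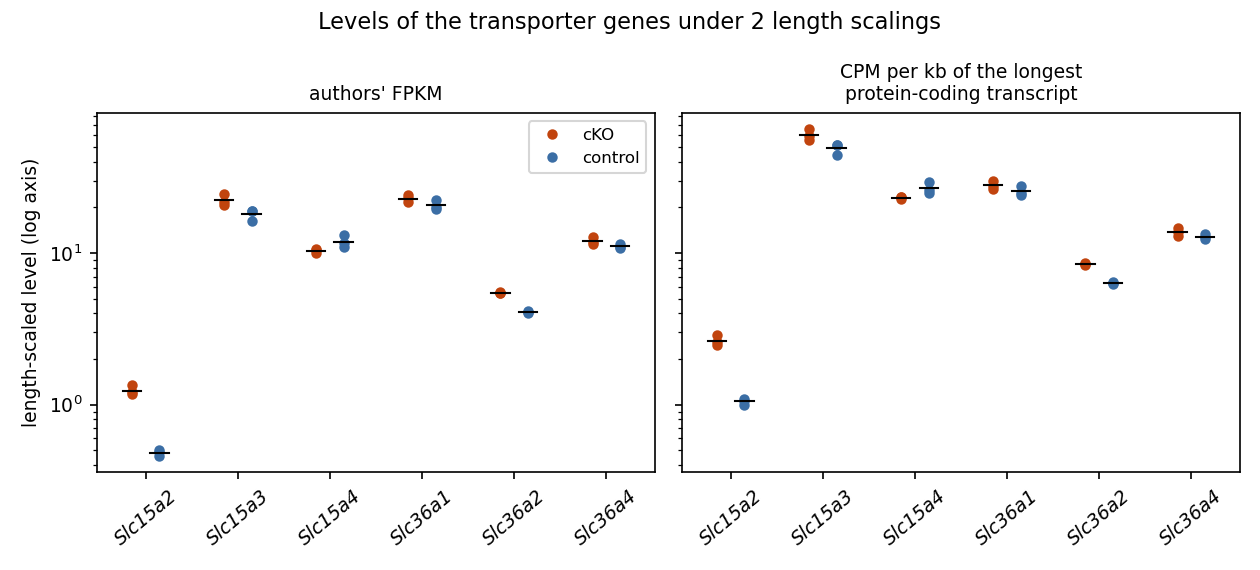
Length-scaled levels of the 6 genes in each library on a log axis, cKO left of control for each gene, with bars at the means; the left panel shows the authors' FPKM and the right panel CPM per kb of the longest protein-coding transcript. Slc15a2 is lowest in both panels, at 1.24 FPKM in cKO and 0.48 FPKM in control cells on average, and Slc15a3 is highest in the right panel only.

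Over the 6 libraries, the genes whose log2 CPM followed that of Slc15a2 most closely, among genes with a mean of at least 5 CPM, were Camk2b, a subunit of calmodulin-dependent kinase (Pearson r = 0.996), Slc36a2 (0.994), the pseudogene Pisd-ps1 (0.992), the gene model Gm42047 (0.991) and Idua, a lysosomal iduronidase (0.990). The points are 6 libraries in 2 genotypes, so these values mainly rank genes by how cleanly the genotypes separate. Camk2b stood at 7.30, 7.10 and 7.26 CPM in cKO libraries and at 3.00, 2.69 and 2.96 CPM in control libraries. With each genotype's mean subtracted, the closest of 10430 genes were Stard4 (0.991), Tlr9 (0.988), Fam222b (0.987), Abraxas1 (0.985) and Fbxo33 (0.985), and Slc36a2 had an r of 0.41. High values at the top of so many genes over 6 libraries can arise without any link, so no relation is read from them.

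Genes beside the transporters on the chromosomes were examined next. Within 100 kb of the 6 genes lie 26 other genes, of which 13 were tested and 0 were called with edgeR, with 2 at an unadjusted p under 0.05. With 2.42% of all tested genes called, so small a number of neighbours would hold few calls at the background share. Their median log2 fold change was 0.15, with a range of -0.44 to 0.43. Near Slc15a2, the costimulatory ligand gene Cd86 stood at 17.2 to 20.1 CPM in cKO libraries and averaged 23.4 ± 2.58 CPM in control libraries (SD, n = 3; log2 fold change -0.30 ± 0.10 SE, adjusted p = 0.157), with every cKO library below every control library. The other tested genes near Slc15a2 had log2 fold changes of 0.15 for Golgb1, 0.22 for Iqcb1, 0.28 for 4930565N06Rik, 0.33 for Gm49599 and 0.43 for Gm8425. Near Slc15a3 they were 0.16 for Tmem132a, -0.06 for Tmem109, -0.12 for Prpf19 and -0.10 for Ccdc86. Near Slc36a1 and Slc36a2 they were 0.03 for Gm2a, 0.22 for Ccdc69 and -0.44 for the pseudogene Atp5pb-ps. The closest genes outside the Slc15a2 locus, Eaf2 and Ildr1, averaged 0.12 and 0.04 CPM in cKO and 0.14 and 0.06 CPM in control cells and were not tested.

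Genes that work with these transporters were counted in 7 lists (edgeR, Benjamini-Hochberg over all genes). In 4 of them 1 gene each was called, which is 9.09% of the lysosomal carriers, 6.25% of the Toll-like and NOD partners, 5.88% of the peptidases and 5.26% of the proton movers, against 2.42% of all tested genes. With 1 gene each, nothing particular to a list is read from these shares. Of 11 genes in the lysosomal carrier list, which is not limited to carriers of amino acids and peptides, 0 rose and 1 fell. It was Slc38a7, a lysosomal exporter of glutamine and asparagine, at 57.1, 56.1 and 57.7 CPM in cKO libraries and 74.7, 67.1 and 66.0 CPM in control libraries (log2 fold change -0.28 ± 0.06 SE, adjusted p = 0.0428). This call was lost whichever of the 6 libraries was left out, with an adjusted p of 0.0533 to 0.202. The list had a median of -0.01, against 0.0015 over all tested genes. Mfsd1, a lysosomal dipeptide carrier, averaged 201 ± 7.20 CPM in cKO and 237 ± 12.8 CPM in control cells (adjusted p = 0.0637).

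Among 16 partners of SLC15A4 in endosomal Toll-like and NOD signalling, 1 rose and 0 fell, with a median of 0.03. Tlr8, an endosomal receptor for RNA, stood at 241, 214 and 227 CPM in cKO libraries and at 166, 165 and 183 CPM in control libraries (0.41 ± 0.07 SE, adjusted p = 0.00775), with all cKO libraries higher. The call was lost without cKO replicate 1 or control replicate 1 or 2 (adjusted p up to 0.0876). Irf5, the transcription factor that acts with SLC15A4, averaged 129 ± 3.69 CPM in cKO and 114 ± 9.72 CPM in control cells (0.18 ± 0.07, adjusted p = 0.204). The adaptor gene 5430427O19Rik, now named Tasl, averaged 7.78 ± 0.93 CPM in cKO and 8.62 ± 0.63 CPM in control cells (-0.15 ± 0.14, adjusted p = 0.634). Tlr7, Tlr9, Nod1 and Nod2 had log2 fold changes between -0.10 and 0.13 and adjusted p of 0.497 or more.

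Of 17 tested peptidases that release or split small peptides, the substrates of the SLC15 carriers, 0 rose and 1 fell, with a median of -0.02. It was Dpp3, a cytosolic dipeptidyl peptidase, at 63.5, 64.9 and 65.0 CPM in cKO libraries and 77.4, 74.9 and 77.1 CPM in control libraries (-0.25 ± 0.06 SE, adjusted p = 0.0401). Its call was likewise lost when any 1 library was left out, where the adjusted p was 0.0510 to 0.214. Anpep, the surface aminopeptidase N, averaged 1104 ± 35.1 CPM in cKO and 944 ± 64.9 CPM in control cells (0.23 ± 0.07, adjusted p = 0.102).

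Among 19 tested plasma membrane proton movers and PEPT2 scaffolds, 1 rose and 0 fell, with a median of 0.05. Hvcn1, the voltage-gated proton channel, stood at 457, 513 and 449 CPM in cKO libraries and at 398, 400 and 354 CPM in control libraries (0.30 ± 0.07 SE, adjusted p = 0.0467). With 1 library left out the call held only without cKO replicate 3, over an adjusted p of 0.0317 to 0.180. Pdzk1, a scaffold known to bind PEPT2 in kidney, was scarce, at 0.79, 0.46 and 1.01 CPM in cKO libraries and 0.12, 0.35 and 0.33 CPM in control libraries (adjusted p = 0.183).

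In 3 further lists no gene was called with edgeR. Of 29 genes for lysosomal amino acid sensing by mTORC1, 9 had an unadjusted p under 0.05, where 17.2% of all tested genes did, and the median was 0.01; the smallest belonged to Rheb, the GTPase that activates mTORC1 (-0.29 ± 0.07 SE, adjusted p = 0.0663), and Tsc1, its inhibitor (0.23 ± 0.07, adjusted p = 0.118). DESeq2 called 1 of these genes, Rheb. Of 21 plasma membrane amino acid transporters, 4 had an unadjusted p under 0.05 and the median was 0.02, led by the cationic amino acid carrier gene Slc7a2 (0.46 ± 0.16, adjusted p = 0.164) and Slc1a5, the glutamine carrier ASCT2 (-0.25 ± 0.09, adjusted p = 0.192). DESeq2 called 0 of these. The last list, with 2 tested genes, held the muropeptide and folate carriers Slc46a3 (0.10 ± 0.07, adjusted p = 0.520) and Slc46a1 (-0.15 ± 0.13, adjusted p = 0.605). These belong to the SLC46 family, and 0 had an unadjusted p under 0.05 and 0 were called by DESeq2.

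**Figure D4:**
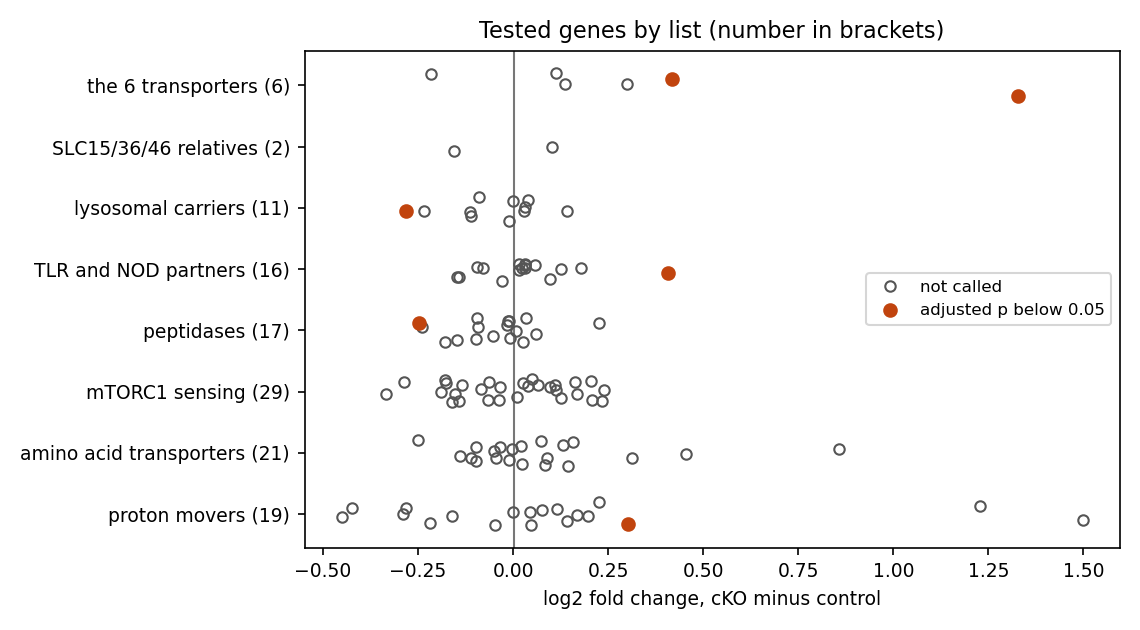
Log2 fold change, cKO minus control, of every tested gene among the 6 transporters and in 7 related lists; filled points have an adjusted p below 0.05 and the vertical line is the median of all tested genes. The lists centre near 0, with medians from -0.03 to 0.05, and hold 4 filled points.

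Among all 242 tested genes with a solute carrier symbol, a list chosen after the values were seen, 3 were higher and 5 lower in cKO cells, or 3.31% against 2.42% of all tested genes. The higher ones were Slc15a2, Slc27a6 and Slc36a2, of which Slc15a2 was chosen on this contrast and Slc36a2 came with it as a relative. Slc27a6, a fatty acid transport protein gene, averaged 10.6 ± 1.09 CPM in cKO and 5.97 ± 0.90 CPM in control cells (0.83 ± 0.15 SE, adjusted p = 0.0136), a call lost without cKO replicate 1 or control replicate 2 or 3. The lower ones were Slc24a5, Slc25a5, Slc25a11, Slc38a7 and Slc11a2, the gene targeted in cKO cells. The call of Slc24a5 was lost whichever library was left out (edgeR adjusted p of 0.0717 to 0.180). Since the list includes the targeted gene and genes selected on this contrast, nothing is read from its share. By log2 fold change Slc15a2 ranked 3 among these 242, behind Slc24a2 and Slc6a3, whose means of 0.43 and 0.21 CPM over all libraries gave SEs of 0.51 and 1.15. Because Slc15a2 was chosen by this same difference, its high rank is a description and carries no support. Slc36a2 ranked 29, Slc15a3 34, Slc36a1 61, Slc36a4 65 and Slc15a4 202.

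Markers of some other cell types also differed between the genotypes. In bulk RNA, more cells of a type and more RNA per cell cannot be told apart. The summed level of 9 neutrophil genes was 262 to 296 CPM in cKO libraries and 196 to 230 CPM in control libraries. Of the 7 tested, 4 were called higher (Ngp, Ltf, S100a8 and S100a9) and 0 lower, where 1.36% and 1.06% of all tested genes were. Their log2 fold changes were positive in 6 of the 7 and negative in 1, from -0.82 to 1.56. Elane and Retnlg were below 1 CPM in every library, Mmp8 made up most of the sum, and Ly6g was not analysed here. Of 5 monocyte genes 1 rose, Ccr2, at 14.1 ± 2.83 CPM in cKO and 3.69 ± 0.27 CPM in control cells, and their sum was 117 to 145 CPM in cKO and 107 to 125 CPM in control libraries. Of 7 dendritic cell genes 3 were tested, 2 with a positive and 1 with a negative log2 fold change, from -0.90 to 0.67. Only Itgax was called, as higher. Flt3, Xcr1, Siglech and Cd209a had at most 0.24 CPM in any library. The dendritic cell sum, nearly all Itgax, was 521 to 584 CPM in cKO and 315 to 377 CPM in control libraries. All 8 osteoclast markers had negative log2 fold changes, from -0.56 to -0.01 with a median of -0.42, and 0 were called. Of the 8, 3 had an unadjusted edgeR p under 0.05, where 17.2% of all tested genes did. Their sum was 8064 to 11498 CPM in cKO and 11181 to 14549 CPM in control libraries. The 6 macrophage markers held 0 calls and summed to 6219 to 6727 CPM in cKO and 6431 to 6947 CPM in control libraries, so the defining genes of the labelled cell type were present. The part of these cell types in the differences of Slc15a2 and Slc36a2 was not tested.

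Markers of the remaining cell types held 0 calls with edgeR. The 7 stromal genes summed to 3694 to 5908 CPM in cKO and 4004 to 4637 CPM in control libraries. All 7 had positive log2 fold changes, from 0.11 to 0.86. An unadjusted edgeR p under 0.05 was found in 2 of the 7, where 17.2% of all tested genes had one. The 4 B cell genes summed to at most 14.6 CPM in cKO and 14.0 CPM in control libraries, of which Ebf1 made up most. The 2 T and NK cell genes summed to 2.48 to 3.73 CPM in cKO and 2.98 to 3.24 CPM in control libraries. Mast cell and erythroid genes summed to at most 1.04 and 1.23 CPM in cKO and 1.55 and 1.02 CPM in control libraries.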

How the data were processed

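Polyadenylated RNA was sequenced as 3 cKO and 3 control strand-marked (dUTP) libraries, per the labels' protocols. The submitters' processing notes name cutadapt 1.9 and mm10; for the aligner, counter, annotation and strand setting nothing is stated. The authors deposited whole-number read counts per gene without normalization, and FPKM values they computed, per the file headers. FPKM served for levels between genes and for the means, percentiles, shares and ratios described by genotype, and was not used in any test. Before scaling, 1 read was worth 0.0173 to 0.0201 CPM.

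Counts were tested with edgeR 4.0.16 in R 4.3.3: filterByExpr (minimum count 10, minimum total 15), TMM scaling, robust quasi-likelihood F test of cKO against control over 6 libraries, Benjamini-Hochberg over all 16843 genes, called below 0.05. The SE is the size of the log2 fold change divided by the square root of F. A genotype fold change is given relative to TMM scaling. The test was run on simulated counts drawn with dispersions fitted to these libraries, with changes set only in well-counted genes. That check cannot tell whether the spread between libraries is technical, and it does not cover changes in low-count genes.

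The members and the 7 related and 10 marker lists were chosen with earlier results of these data known. Genes named were the members, Slc11a2 and Lyz2, up to 4 called genes per list by smallest raw p (otherwise the 2 with the smallest raw p), tested genes within 100 kb of a member, and the 5 genes most like Slc15a2 by each of 2 measures (log2 of CPM + 0.5). Mfsd1, Irf5, Tlr7, Tlr9, Nod1, Nod2, Tasl, Anpep, Pdzk1, untested neighbours and the solute carrier list were chosen after their values were seen. Alternatives were RLE scaling, DESeq2 1.42.0, limma-voom (limma 3.58.1) with sample weights, other filters, the replicate number as a block, and each library left out. Promoters are those of RefSeq on GRCm38.p6. A planned comparison of protein sequences was not made.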

Additional observations from a re-analysis of the deposited data

How the results depend on the processing

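The log2 fold changes of the 6 transporter genes kept their sign under all 12 alternatives, at 1.26 to 1.38 for Slc15a2, 0.23 to 0.35 for Slc15a3, -0.27 to -0.14 for Slc15a4, 0.09 to 0.20 for Slc36a1, 0.41 to 0.43 for Slc36a2 and 0.07 to 0.16 for Slc36a4. Slc36a2 was called in 7 of the 12, and Slc15a3, not called otherwise, was called with DESeq2, limma-voom, the filter of 1 CPM, the block and without cKO replicate 3. The gap between Slc15a2 and its relatives was 1.12 to 1.24 with a library left out. The number of genes called depended strongly on the fit, and the cause was not tested. It was 792 with DESeq2 (373 higher, 419 lower), 704 with limma-voom (350 and 354), 673 with the replicate number as a block (357 lower) and 59 to 624 with a library left out (39 to 313 higher and 20 to 311 lower). By library left out it was 59, 235 and 624 without cKO replicate 1, 2 and 3, and 91, 166 and 116 without control replicate 1, 2 and 3. The same-numbered libraries did not deviate together (correlations of -0.02, 0.01 and 0.07), and not every library correlated best with its own number, so the numbers were not taken to pair libraries.

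Among the lists, DESeq2 called 2 lysosomal carriers, 2 peptidases, 1 mTORC1 gene and 2 proton movers. Limma-voom called 2 lysosomal carriers and 2 peptidases. The block called 2 lysosomal carriers, 2 peptidases, 1 mTORC1 gene, 1 amino acid transporter and 4 proton movers. With a library left out the calls were 0 to 0 for lysosomal carriers and for peptidases, 0 to 1 for Toll-like and NOD partners and for amino acid transporters, and 0 to 4 for proton movers. Length-scaled levels moved when per kb of the longest transcript, as given above. Counting error (6.54% of the control mean) limits Slc15a2 more than the other transporter genes.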
